A study of Mus musculus with 12 samples.

Results

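The mesenchymal identity markers are 10 genes used as markers of fibroblasts and related stromal cells, though not exclusive to them: Vim, Fn1, Thbs1, Acta2, Pdgfra, Pdgfrb, Prrx1, Twist1, Thy1 and Dcn. They were taken from the 19938 genes that the array annotation names with a probe set of their own. Each member had 1 such probe set, and no probe set shared with another gene named a member. By RefSeq they lie on chromosomes 2 (Vim and Thbs1), 1 (Fn1 and Prrx1), 19 (Acta2), 5 (Pdgfra), 18 (Pdgfrb), 12 (Twist1), 9 (Thy1) and 10 (Dcn). Their RNA was measured in 4 mouse iPS lines (induced pluripotent stem cells), somatic cells brought back to a state like that of embryonic stem cells. LiPS-50 and LiPS-47 are iPS lines without tetraploid complementation competence, and LiPS-45 and LiPS-57 are lines with it. All 4 were derived from embryonic fibroblasts of C57BL/6J mice with 3 factors and grown in embryonic stem cell medium, and the labels name no feeder layer. Tetraploid complementation asks whether stem cells placed in a tetraploid host embryo can form the fetus. Each line was sampled as 3 biological repeats, here called cultures, with 1 Affymetrix array each, so the 12 arrays allow comparisons between lines. Competence is a property of a line and was compared over 2 lines against 2 lines.

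Mesenchymal cells are migratory cells that secrete a fibrous matrix, lack the tight junctions of epithelia and carry vimentin filaments. Embryonic fibroblasts are mesenchymal, whereas pluripotent colonies are epithelial, and reprogramming of fibroblasts passes through a mesenchymal-to-epithelial transition early on. PDGF ligands signal through the receptor tyrosine kinases encoded by Pdgfra and Pdgfrb, TGF-beta drives matrix and contractile genes, and Twist- and Prrx-class transcription factors hold the mesenchymal programme in place.

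Every probe set was tested on the scale log2(intensity + 1), called log2 intensity below, which understates the change of dim genes. Line differences were estimated with limma across 28939 probe sets, and adjusted p-values are Benjamini-Hochberg values over all of them with a threshold of 0.05. The arrays of a line had a mean correlation of 0.996 to 0.997 with one another over all probe sets. The number of arrays limits the precision. RNA came from whole cultures, so fewer cells of a type and less RNA per cell cannot be told apart.

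The promoters of 4 members are shown. Acta2 was taken for a pair of relaxed CArG boxes and Pdgfra as the member that differed most between lines. Vim and Twist1 were taken for the word TATAAA, the motif of the TATA box, a general core element. Whether either match acts as one was not tested. They are 250 bases upstream of the gene start from RefSeq (GRCm38.p6), read 5′ to 3′ on the gene's strand, and such windows were searched for 5 of the 10 members. The Acta2 window lies at chr19:34255374-34255623 on the minus strand, the Vim window at chr2:13574061-13574310 on the plus strand, the Pdgfra window at chr5:75152001-75152250 on the plus strand and the Twist1 window at chr12:33957421-33957670 on the plus strand. Capitals mark CArG boxes with 1 inner G or C in Acta2 and the word TATAAA in Vim and Twist1. No letters are marked in Pdgfra.
Acta2: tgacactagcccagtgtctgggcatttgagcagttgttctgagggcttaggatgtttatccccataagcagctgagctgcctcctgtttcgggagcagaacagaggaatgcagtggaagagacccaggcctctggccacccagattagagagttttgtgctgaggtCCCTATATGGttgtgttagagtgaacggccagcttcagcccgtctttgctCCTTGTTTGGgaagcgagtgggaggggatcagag
Vim: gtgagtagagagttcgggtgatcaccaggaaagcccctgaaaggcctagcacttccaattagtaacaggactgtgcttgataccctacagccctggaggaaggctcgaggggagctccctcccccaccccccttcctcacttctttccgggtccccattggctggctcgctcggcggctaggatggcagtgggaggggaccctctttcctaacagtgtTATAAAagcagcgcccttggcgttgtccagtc
Pdgfra: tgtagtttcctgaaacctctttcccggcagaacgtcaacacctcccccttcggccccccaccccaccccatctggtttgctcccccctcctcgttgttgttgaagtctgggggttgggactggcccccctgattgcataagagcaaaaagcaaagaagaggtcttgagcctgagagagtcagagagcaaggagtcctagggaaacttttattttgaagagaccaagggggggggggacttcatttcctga
Twist1: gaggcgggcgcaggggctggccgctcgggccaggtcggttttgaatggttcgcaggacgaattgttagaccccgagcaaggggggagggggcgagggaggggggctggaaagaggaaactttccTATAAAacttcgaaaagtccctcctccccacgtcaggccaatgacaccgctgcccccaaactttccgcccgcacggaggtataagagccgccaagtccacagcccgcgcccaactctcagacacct

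The CArG box is the binding element of serum response factor, the regulator of smooth muscle and cytoskeletal genes. Acta2 held a pair of such boxes with 1 inner G or C, starting 84 and 34 bases before the gene start. That relaxed motif occurred in 7.24% of all 32851 promoter windows of the same length, searched on both strands. The exact CArG box was in 1.47% of windows and in none of the 5 members' windows. The word TATAAA began 32 bases before the start in Vim and 126 bases before it in Twist1, against 12.37% of windows with this motif. The E-box, to which Twist1 and other basic helix-loop-helix factors bind, was found at 3 sites in Acta2 and 1 in Pdgfra, and 66.22% of windows held one. The exact and the relaxed CArG box exclude each other at a site, and the E-box and AP-1 element read the same on both strands and were counted 1 time per site. The AP-1 element TGANTCA, in 6.75% of windows, was absent from the 5 windows. The GC box GGGCGG was found in Twist1 and the CCAAT box in Vim and Twist1, against 32.74% and 33.85% of windows. A match describes the letters of the window only.

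The first question was which lines differ in these genes, which were chosen with earlier results of these data known. The shares of all probe sets beside the member counts are thus a description. LiPS-50 was higher for 10 of 10 members in each comparison, where 8.48% of all probe sets were called higher against LiPS-47, 8.18% against LiPS-45 and 8.16% against LiPS-57. The log2 differences lay between 0.31 and 1.25, with limma adjusted p from 2.91e-05 to 0.0203. The PDGF receptor Pdgfra and the proteoglycan Dcn differed most, and the filament gene Vim least in LiPS-50 minus LiPS-47. Between LiPS-47, LiPS-45 and LiPS-57 none of the members was called.

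Among the cytoskeletal and matrix members, Vim encodes vimentin, the intermediate filament of mesenchymal cells. Its intensity was 6432, 6097 and 6512 in LiPS-50, against 5201, 5214 and 4396 in LiPS-47, 4830.0, 5544 and 4985 in LiPS-45 and 4792, 5305 and 5019.9 in LiPS-57. All 3 LiPS-50 cultures lay above the 9 others, and the other lines overlapped. The log2 difference of LiPS-50 was 0.37 (SE 0.0812) from LiPS-47, 0.31 (SE 0.0812) from LiPS-45 and 0.33 (SE 0.0812) from LiPS-57, with limma adjusted p of 0.00826, 0.0203 and 0.0149. Vim was the 1 member that lost a call under any alternative run. Against LiPS-45 the adjusted p was 0.0614 with median centring, 0.0605 without LiPS-50 replicate 1, 0.0662 without LiPS-50 replicate 3, 0.0759 without LiPS-45 replicate 1 and 0.0724 without LiPS-45 replicate 3. Against LiPS-57 it was 0.0527 without LiPS-50 replicate 3 and 0.0624 without LiPS-57 replicate 1.

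Fn1 encodes fibronectin, the matrix glycoprotein that integrins grip. Its intensity was 5719.7, 4853 and 5447 in LiPS-50, against 3906, 3934 and 3414 in LiPS-47, 4046, 4489 and 3884 in LiPS-45 and 3948, 4065 and 3995 in LiPS-57. LiPS-50 was again above every other culture. Thbs1, a matricellular protein able to activate latent TGF-beta, had 5077, 4652 and 5237 in LiPS-50, against 3361, 3436 and 2832 in LiPS-47, 3382, 3963 and 3256 in LiPS-45 and 3401, 3649 and 3400.3 in LiPS-57. The LiPS-50 cultures of Thbs1 also stood clear of the rest. The LiPS-50 difference from LiPS-47 was 0.51 for Fn1 (95% CI 0.33 to 0.69, adjusted p = 0.00115) and 0.64 for Thbs1 (95% CI 0.44 to 0.84, adjusted p = 0.00059). Acta2 encodes the smooth muscle actin of myofibroblasts, and its promoter is printed above. Its intensity was 4159, 4059.8 and 4457 in LiPS-50, against 3263, 3196 and 2646 in LiPS-47, 3110.4, 3374 and 3146 in LiPS-45 and 3156, 3253 and 3266 in LiPS-57. The groups did not overlap, and LiPS-50 exceeded LiPS-47 by 0.48 (adjusted p = 0.00141).

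Both PDGF receptors were higher in LiPS-50. Pdgfra, which marks mesenchymal progenitors, had 429, 353 and 393 in LiPS-50, against 164, 193 and 138 in LiPS-47, 199, 216 and 172 in LiPS-45 and 185, 183 and 174 in LiPS-57. LiPS-50 held 2.38 times the level of LiPS-47, 2.00 times that of LiPS-45 and 2.16 times that of LiPS-57, with limma adjusted p of 2.91e-05, 0.000155 and 8.65e-05. These were the largest log2 differences among the members in each of the 3 comparisons. Pdgfrb, the receptor of pericytes and smooth muscle, had 329, 244 and 294 in LiPS-50, against 181, 187 and 160.0 in LiPS-47, 187, 222 and 165 in LiPS-45 and 187, 201 and 189 in LiPS-57. Here too all LiPS-50 cultures were above the other 9. The difference from LiPS-47 was 0.71 (SE 0.12, adjusted p = 0.0016), from LiPS-45 0.59 and from LiPS-57 0.58.

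**Figure D1:**
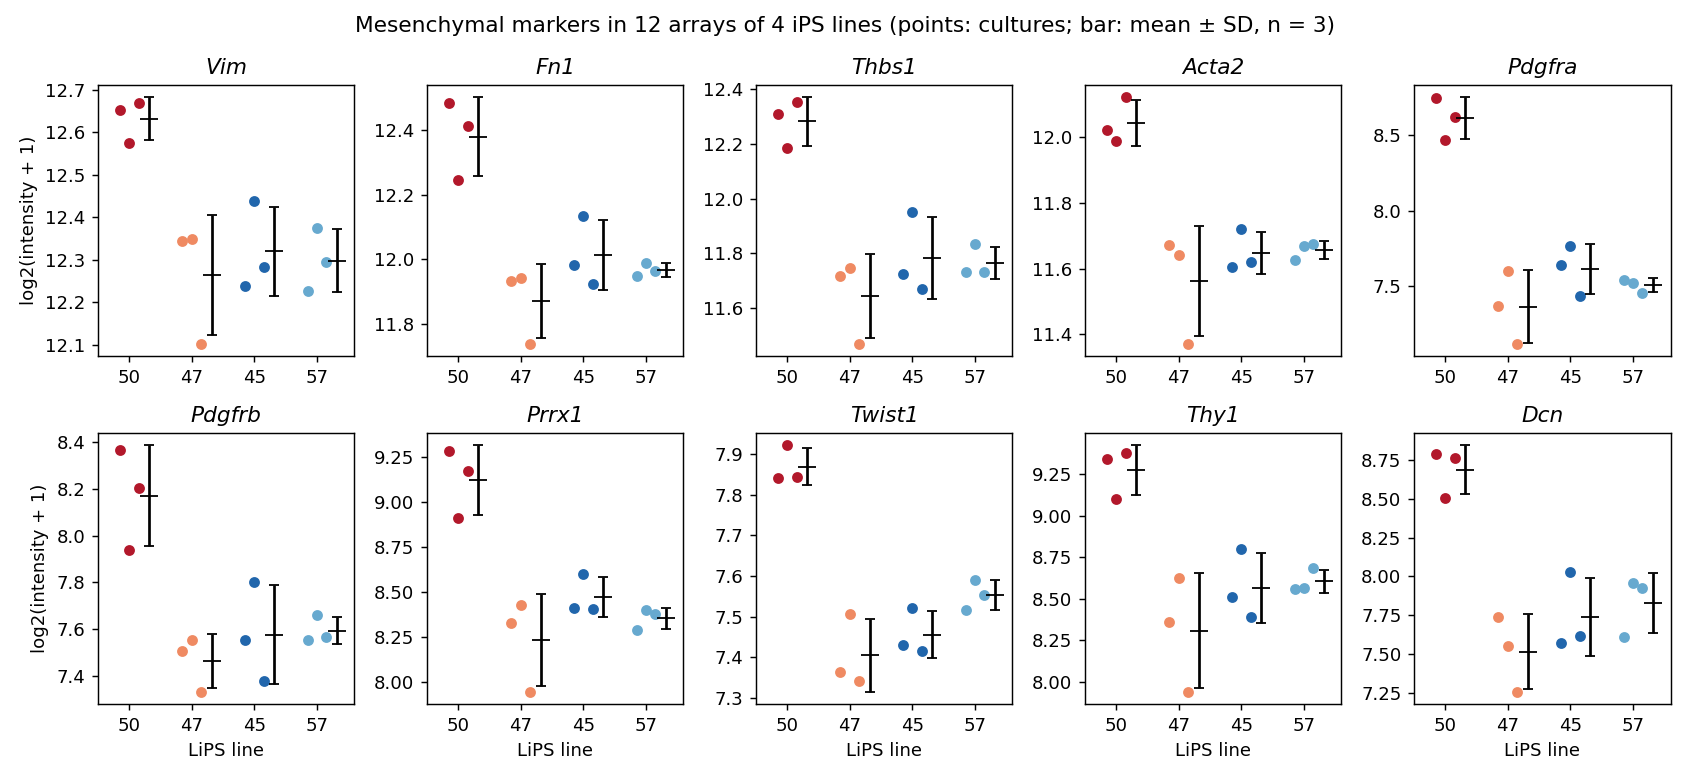
Level of each member in the 12 arrays, one panel per gene; the y axis is log2(intensity + 1), points are cultures, and bars are the line mean with SD. The 3 LiPS-50 cultures lie above the 9 others in all 10 panels.

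The transcription factors are Prrx1, a homeobox factor of limb and facial mesenchyme, and Twist1, a basic helix-loop-helix repressor of E-cadherin in epithelial-mesenchymal transition. Prrx1 had 623, 480.2 and 576 in LiPS-50, against 321, 344 and 246 in LiPS-47, 339.6, 388 and 339 in LiPS-45 and 312, 337 and 332 in LiPS-57. The lowest LiPS-50 culture was above the highest culture of any other line. Twist1 had 228, 241 and 228 in LiPS-50, against 164, 181 and 161 in LiPS-47, 172, 183 and 169.6 in LiPS-45 and 182, 192 and 187 in LiPS-57. Twist1 had the tightest cultures of the members, with a pooled within-line SD of 0.0608 in log2. The LiPS-50 differences from LiPS-47, LiPS-45 and LiPS-57 were 0.89, 0.65 and 0.77 for Prrx1 and 0.46, 0.41 and 0.32 for Twist1. The adjusted p against LiPS-47 was 0.00046 for Prrx1 and 0.000376 for Twist1.

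Thy1 encodes a surface glycoprotein of fibroblasts that thymocytes and neurons also carry, and Dcn encodes decorin, a small leucine-rich proteoglycan that binds collagen fibrils. Thy1 had 647, 549 and 665 in LiPS-50, against 328, 393 and 244 in LiPS-47, 363, 445 and 334 in LiPS-45 and 377, 378 and 411 in LiPS-57. LiPS-47 was the most scattered line for this gene. Dcn had 441, 362 and 434 in LiPS-50, against 213, 187 and 152 in LiPS-47, 189, 259.6 and 196 in LiPS-45 and 194, 248 and 242 in LiPS-57. The LiPS-50 cultures of both genes were above all others. The difference from LiPS-47 was 0.97 for Thy1 (adjusted p = 0.00101) and 1.17 for Dcn (adjusted p = 0.000265), a 2.25-fold level.

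In 10 of 10 members every LiPS-50 culture lay above the 9 other cultures, which held for 8.81% of probe sets. All 10 were called higher in the 3 comparisons at once, against 5.86%. The 3 comparisons share the LiPS-50 arrays. The median member difference was 0.67, 0.55 and 0.55 against LiPS-47, LiPS-45 and LiPS-57, and the medians over all probe sets were -0.014, 0.00024 and -0.00019. With median centring of each array, the calls over all probe sets shifted toward lower: 1723 of 4950 were higher against LiPS-45, where 2368 of 4771 were with the values as deposited, and 1753 of 4635 against LiPS-57, where 2362 of 4527 were. With median centring 9 of 10 members were called against LiPS-45 and 10 against LiPS-57. Without LiPS-47 replicate 3, the lowest culture of that line, all 10 stayed called against LiPS-47, with differences from 0.28 for Vim to 1.13 for Pdgfra.

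**Figure D2:**
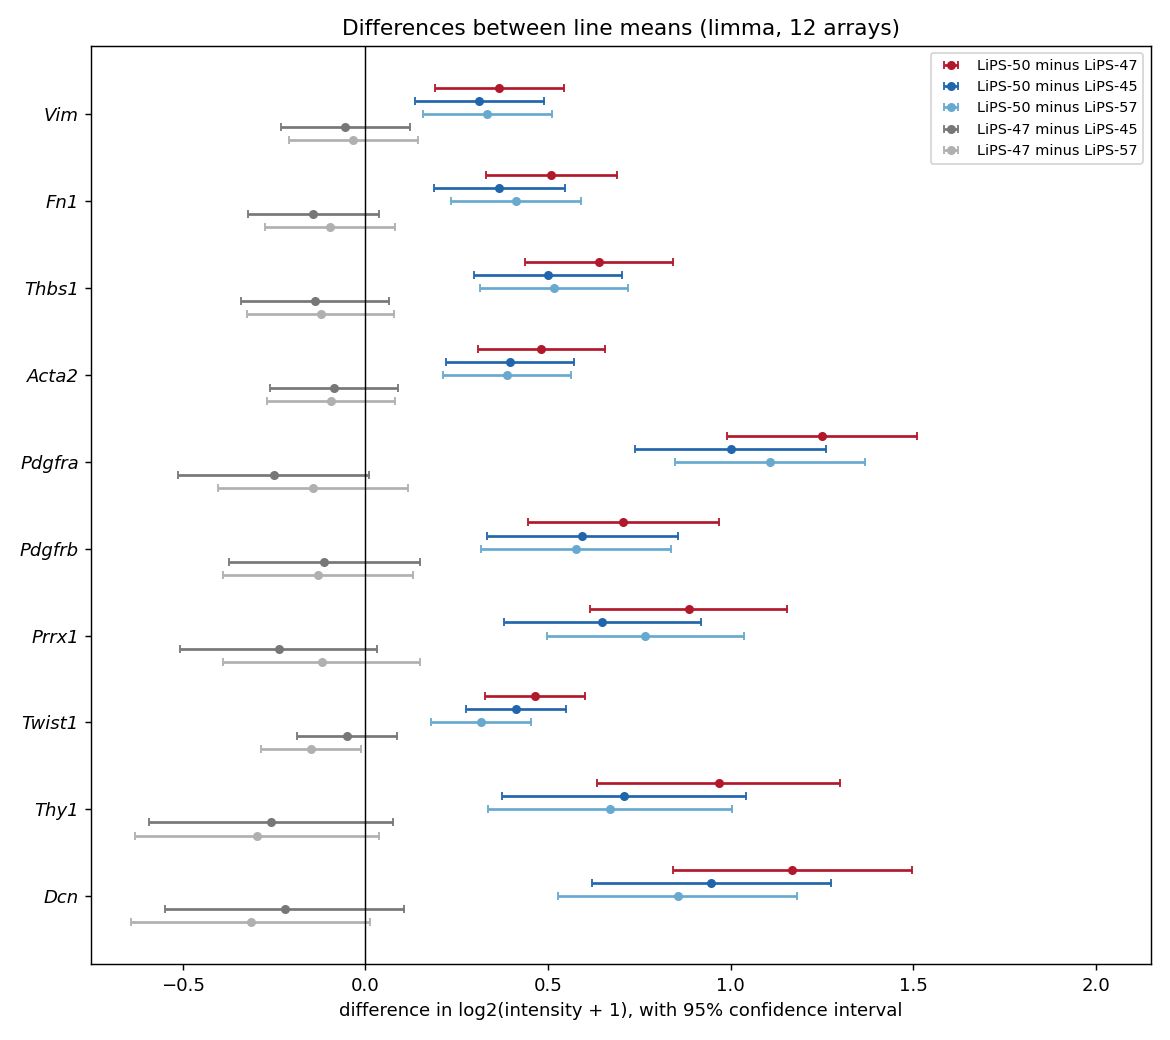
Differences between line means in log2(intensity + 1) for the 10 members, with 95% confidence intervals from limma over 12 arrays. The LiPS-50 differences lie between 0.31 and 1.25 with no interval reaching 0. The differences of LiPS-47 from LiPS-45 and LiPS-57 lie to the left of 0, but their intervals include 0 except for Twist1 against LiPS-57.

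None of the 10 members was called between the other 3 lines. Cultures of LiPS-47 and LiPS-57 overlapped except for Fn1 and Twist1, those of LiPS-45 and LiPS-57 except for Prrx1, and those of LiPS-47 and LiPS-45 for all 10. The members without overlap were thus 2, 1 and 0 of 10, where 11.9%, 14.3% and 13.6% of all probe sets did not overlap between the same pairs of lines. LiPS-47 minus LiPS-45 called 0 of 10 members by limma, with 0 at an unadjusted p under 0.05, where 0.0622% of probe sets were called in either direction. LiPS-47 minus LiPS-57 called 0 of 10, with 1 at an unadjusted p under 0.05, against 0.159%. That member was Twist1, with a difference of -0.15 (unadjusted p = 0.0363, adjusted p = 0.682). LiPS-45 minus LiPS-57 called 0 of 10, with 0 at an unadjusted p under 0.05, against 0.266%. The 95% interval of Pdgfra was -0.51 to 0.01 for LiPS-47 minus LiPS-45. LiPS-47 was lower than LiPS-45 and LiPS-57 in the mean of all 10 members, and this rested in part on LiPS-47 replicate 3: without it the mean of Vim and Acta2 was higher in LiPS-47 than in both lines and that of Prrx1 higher than in LiPS-57. The test of any difference among the 4 lines called 10 of 10, where 14.9% of probe sets were called, with adjusted p from 7.5e-05 for Pdgfra to 0.0217 for Vim.

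Ranked by mean, LiPS-50 stood first for every member. The order of the other 3 lines was not separable: the means of Pdgfra were 8.61 ± 0.139 in LiPS-50, 7.36 ± 0.243 in LiPS-47, 7.61 ± 0.167 in LiPS-45 and 7.50 ± 0.0463 in LiPS-57 in log2 intensity, with SD over 3 cultures. Dcn gave 8.69 ± 0.156, 7.52 ± 0.242, 7.74 ± 0.25 and 7.83 ± 0.194 in the same lines.

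The lines without competence were compared with the lines with it, with the line as a random block. By limma 0 of 10 members were called, with 0 at an unadjusted p under 0.05, against 0% of all probe sets and 7.69% at an unadjusted p under 0.05. The member differences were between 0.13 and 0.43, and the adjusted p between 0.688 and 0.818. When the 4 line means were contrasted by limma without the line as a block, 1 of 10 was called, against 6.18% of probe sets. It was Pdgfra, with a difference of 0.43 and an adjusted p of 0.0107. That contrast takes its error from cultures within lines, so its p does not measure the spread between lines of a class. The fit with the line as a block used 1 consensus correlation (0.183) for all probe sets. The p of the blocked fit thus also rests in part on cultures within lines. LiPS-50 had the highest and LiPS-47, also without competence, the lowest of the 4 line means for all 10 members.

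Members also moved together between cultures of a line. Each array's deviation from its line's mean, averaged over the members, was 0.076, -0.123 and 0.047 in LiPS-50, 0.071, 0.132 and -0.202 in LiPS-47, -0.052, 0.157 and -0.105 in LiPS-45 and -0.053, 0.044 and 0.0096 in LiPS-57. LiPS-47 replicate 3 was the lowest of the 12 arrays for 10 of 10 members, against 8.44% of probe sets. LiPS-45 replicate 2 was the highest of its line for 10 of 10, against 31.3%. LiPS-50 replicate 2 was the lowest of its line for 9 of 10, against 33.2%, the exception being Twist1.

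**Figure D3:**
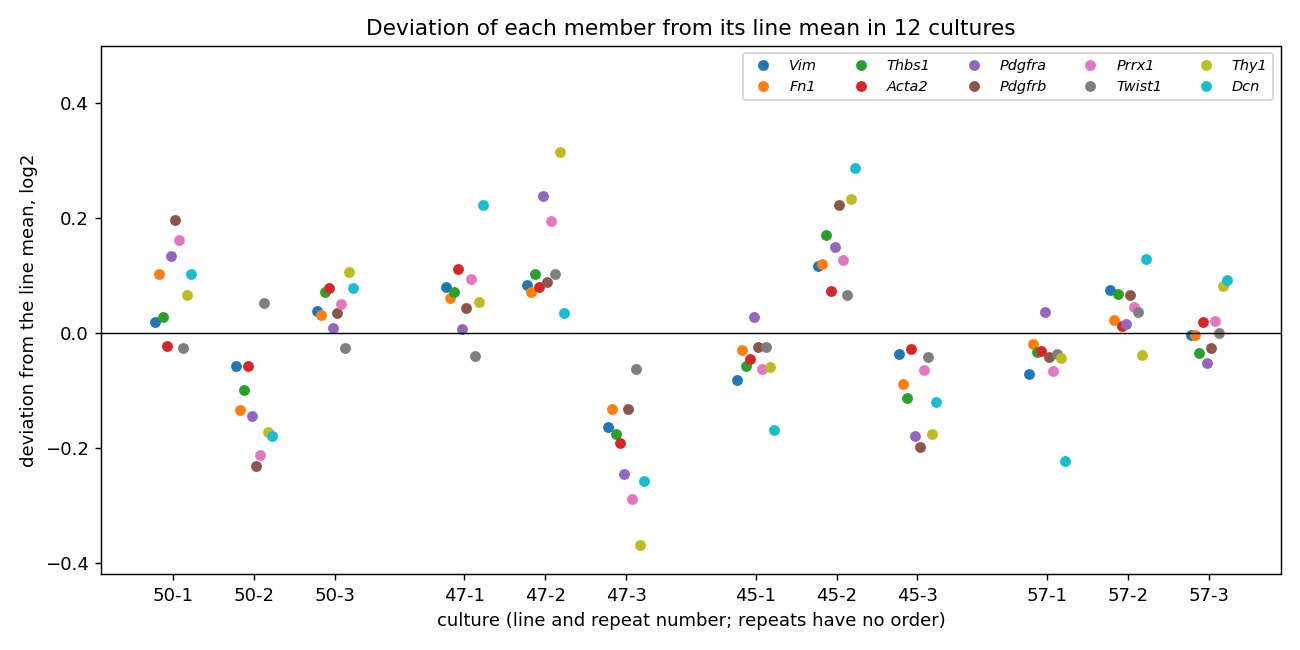
Deviation of each array from its line's mean in log2 intensity for each member (colours), in 12 columns by line; cultures of a line have no order. LiPS-47 replicate 3 is below its line's mean for all 10 members and LiPS-45 replicate 2 above it.

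Over the deviations of 12 arrays, which share their lines and leave 8 degrees of freedom, the 45 pairs of members had a median Pearson r of 0.84, from 0.31 for Pdgfrb and Twist1 to 0.96 for Fn1 and Pdgfrb. Of these pairs 33 had r of at least 0.7, whereas 2.39% of all gene pairs did. The median Spearman rho was 0.78. For each pair, r was also taken without the 2 arrays farthest from the median of the pair's first gene. The arrays left out thus differed between pairs. The median r was then 0.75 and 28 pairs reached 0.7. Without LiPS-47 replicate 3 and LiPS-45 replicate 2 together, a choice made after seeing the data, 12 pairs reached 0.7 and the median was 0.61. The number of high pairs thus depended on these 2 arrays. The share of all gene pairs was not recomputed without them. Twist1 was the member least tied to the others, with a median r of 0.43 and 0 of 9 at 0.7 or more. The plot of pairwise correlation shows this as a pale row.

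**Figure D4:**
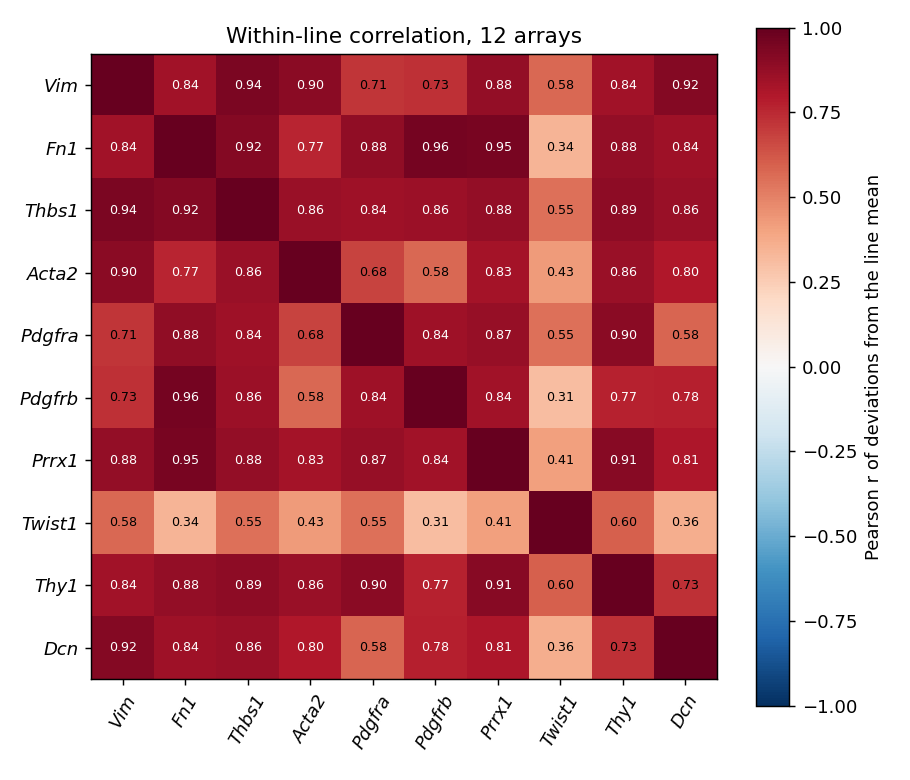
Pearson r between members over the within-line deviations of 12 arrays, with colour giving r. Twist1 has r between 0.31 and 0.60 with the other 9 members, and the rest pair between 0.58 and 0.96.

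Spread within lines was largest for Thy1, with a pooled SD of 0.219, and Dcn, with 0.214, and lowest for Twist1. The level of each member was also taken relative to the mean of the other 9. On that scale Pdgfra was 0.53 and Dcn 0.39 higher in LiPS-50 than in the other lines. Vim was 0.34, Acta2 0.24, Fn1 0.24 and Thbs1 0.10 lower, each of these members with no overlap of the cultures. Prrx1 (0.14), Thy1 (0.155), Pdgfrb (-0.02) and Twist1 (-0.27) overlapped. A large rise of some members lowers the relative value of the rest, and every member's own level was higher in LiPS-50. Vim, Fn1, Thbs1 and Acta2 were also the brightest members, at percentiles 98.1 to 99.2 of probe set means, against 72.0 to 84.7 for the rest. Whether brightness had a part was not tested.

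Other genes of the mesenchymal programme, listed with earlier results of these data known, were examined in the same fit. All 11 measured genes of fibroblast matrix outside the members were called higher in LiPS-50 against LiPS-47, beside 8.48% of all probe sets, and all 11 against LiPS-45 and LiPS-57 too. Col3a1, the fibrillar collagen of soft connective tissue, averaged 9.83 ± 0.129 in LiPS-50, 8.79 ± 0.21 in LiPS-47, 8.97 ± 0.167 in LiPS-45 and 8.99 ± 0.0847 in LiPS-57 log2 units (SD, n = 3), a difference of 1.04 from LiPS-47 (adjusted p = 8.58e-05). Lox, which cross-links collagen, differed by 0.96 and Col6a1 by 0.86. Small leucine-rich proteoglycans, the family of Dcn, were called higher for 5 of 8, with Aspn at 1.06 and Bgn at 0.76.

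The next counts and differences are for LiPS-50 minus LiPS-47, where 8.48% of all probe sets were called higher and 7.31% lower. Of 13 other mesenchymal transcription factors 9 were called higher and 0 lower, and 8 were higher against LiPS-45 and 6 against LiPS-57, again with 0 lower. Snai2, a repressor of epithelial genes, had 8.08 ± 0.206 in LiPS-50 and 7.08 ± 0.284 in LiPS-47, a difference of 1.01 (adjusted p = 0.000602), and Zeb2 and Twist2, which act in the same transition, each differed by 0.55. TGF-beta pathway and response genes were higher for 6 of 11, among them the ligand Tgfb3 (0.77), the receptor Tgfbr2 (0.64) and the response gene Tgfbi (1.01). Contractile and actin-binding genes were higher for 7 and lower for 1 of 15, with Actg2 at 0.68, and other intermediate filaments higher for 3 and lower for 1 of 6. Of the 4 PDGF ligands, Pdgfc (0.35) and Pdgfd (0.73) were called higher, Pdgfb (-0.73, adjusted p = 0.000123) lower, and Pdgfa (-0.02) was not called. Fibronectin-binding integrins and partners were higher for 6 and lower for 1 of 11, stromal surface markers higher for 7 and lower for 1 of 9, and matricellular genes higher for 8 and lower for 1 of 15. Called higher against all 3 lines, beside 5.86% of all probe sets, were 6 of 13 transcription factors, 6 of 11 TGF-beta genes, 7 of 15 matricellular genes, 6 of 9 stromal surface markers, 5 of 8 proteoglycans, 5 of 11 integrins and partners, 4 of 15 contractile genes and 2 of 6 other intermediate filaments.

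**Figure D5:**
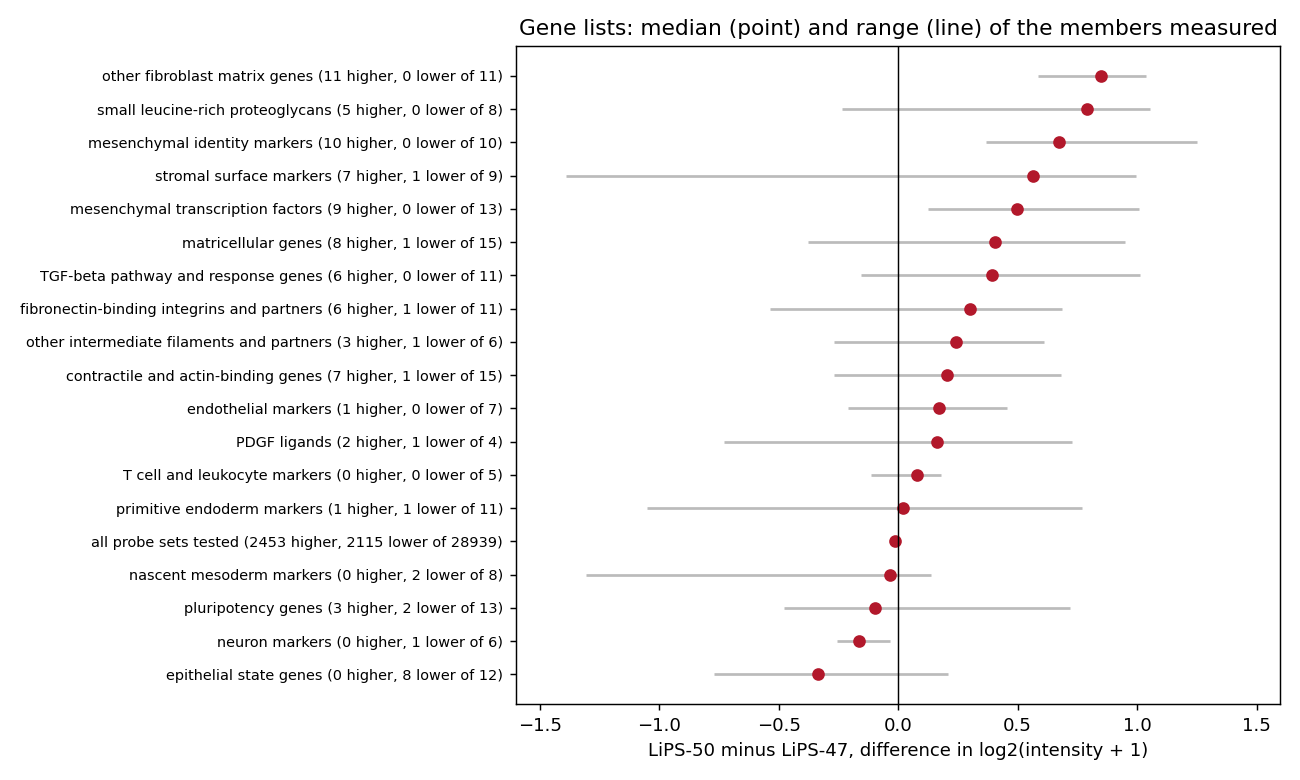
Median and range of LiPS-50 minus LiPS-47 in log2(intensity + 1) over the measured genes of each list, with the members' own row and, with no range drawn, all probe sets. The medians of the mesenchymal lists lie to the right of 0, as do those of the endothelial, leukocyte and primitive endoderm lists. That of the epithelial list lies to the left, as do those of the neuron, pluripotency and nascent mesoderm lists.

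Genes of other cell types and states were called in both directions. Of T cell and leukocyte markers 0 of 5 were called in LiPS-50 minus LiPS-47 by limma, with 0 at an unadjusted p under 0.05, and of the 7 endothelial markers 1 was, Pecam1, which pluripotent cells also carry (0.39). The leukocyte gene Ptprc averaged 4.05 ± 0.0261, 3.87 ± 0.192, 3.95 ± 0.0771 and 4.01 ± 0.193 in LiPS-50, LiPS-47, LiPS-45 and LiPS-57 (log2 intensity, SD, n = 3), under the 40th percentile of all means (5.21). Primitive endoderm markers were higher for 1 of 11 and lower for 1, Dab2 and Foxa2, and nascent mesoderm markers lower for 2 of 8, Eomes (-1.30) and Mixl1 (-0.95). Of 12 epithelial genes 0 were higher and 8 lower in LiPS-50 minus LiPS-47, beside 7.31% of all probe sets called lower, with -0.77 for Krt8 and -0.38 for Cdh1, the E-cadherin of epithelia. Against LiPS-45, 2 were higher and 4 lower, and against LiPS-57, 1 was higher and 4 lower. The median difference of the list was -0.34, -0.13 and -0.09 against LiPS-47, LiPS-45 and LiPS-57. In single comparisons, 8.3% of probe sets were called lower against LiPS-45 and 7.48% against LiPS-57. Cdh1, Cldn6 and Esrp1 were called lower in all 3 comparisons, and the share of all probe sets lower in all 3 was not computed. Of 13 pluripotency genes, Fgf4, Nanog and Tbx3 were called higher and Lin28a and Tdgf1 lower in LiPS-50 minus LiPS-47. Against LiPS-45, 2 were higher and 4 lower, and against LiPS-57, 2 were higher and 5 lower. Of 6 neuron markers 0 were higher and 1 lower than in LiPS-47, Stmn2 (-0.25). Between the other lines, the calls in these lists were 3 of 12 epithelial genes higher in LiPS-47 than in LiPS-57, beside 0.145% of probe sets, among them Krt8 (0.72) and Krt18 (0.73).

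The summed intensity of the members was 21893 to 24244 in LiPS-50, 14389 to 17264 in LiPS-47, 16647 to 19083 in LiPS-45 and 16734 to 17811 in LiPS-57. The summed intensity of the other fibroblast matrix genes was 11731 to 13803, 6233 to 8279, 7385 to 9372 and 7673 to 8195 in the same lines, and that of the pluripotency genes 15181 to 15679, 16318 to 17075, 16722 to 17266 and 17399 to 17583. The summed intensity of the epithelial genes was 8212 to 8648, 10641 to 11206, 9314 to 9504 and 8746 to 9660. Bright genes carry most of a sum, and the mean log2 intensity over a list weights its genes equally. On that scale the matrix list was 9.69 to 9.93 in LiPS-50, 8.77 to 9.17 in LiPS-47, 9.02 to 9.33 in LiPS-45 and 9.05 to 9.18 in LiPS-57, with no overlap of LiPS-50 and the rest. The pluripotency list was 9.62 to 9.65, 9.60 to 9.64, 9.61 to 9.69 and 9.69 to 9.73 in the same lines, so that LiPS-50 overlapped LiPS-47 and LiPS-45. The epithelial list was 8.84 to 8.87, 9.12 to 9.16, 8.93 to 8.98 and 8.87 to 8.98, and LiPS-50 overlapped LiPS-57. The part of these lists in the result was not tested. Within lines, the mean log2 intensity of the fibroblast matrix genes had r = 0.99 with the member mean over the 12 arrays. The stromal surface markers had 0.97, the pluripotency genes -0.51 and the nascent mesoderm markers -0.65. For the neuron markers r was 0.66, for primitive endoderm 0.30 and for the epithelial genes 0.14. The endothelial markers gave -0.0077 and the T cell and leukocyte markers -0.40.

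By likeness to the member mean over within-line deviations, Serpinf1 was the closest gene (r = 0.986 over 12 arrays), then Tnc, Col3a1, Fbln2 and Axl, with r from 0.979 to 0.985. Over the log2 values themselves, which include the line differences, Col3a1 (0.997), Mmp2, Lox, Cdh11 and Rhoj were closest. These correlations are across 12 arrays that share lines, and 5.36% of the other genes had r of at least 0.7 with the member mean within lines.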

How the data were processed

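Affymetrix whole-transcript arrays measured total RNA of 12 cultures, per the labels' protocols. For each array the authors deposited a linear intensity of every probe set. GCOS 1.4 is named in the submitters' processing notes, and the sources used here do not give the summarisation, background correction or normalization. Quartiles of the deposited values agreed between arrays within 0.0954 in log2, so no scaling was added. Each deposited intensity became log2(intensity + 1).

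Of 35556 probe sets, 6617 whose identifiers precede those of the array annotation were left out as a presumed control block. A gene is represented by its brightest single-gene probe set. Lines were compared with limma 3.58.1 in R 4.3.3 (lmFit, eBayes, two-sided, Benjamini-Hochberg over 28939 probe sets; 8 residual and 4.06 prior degrees of freedom), and competence with the line as a random block (consensus correlation 0.183). A p-value between lines reflects the spread of cultures, which the labels call biological repeats.

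The members and lists were chosen with earlier results of these data known. The rule for named genes took all 10 members, up to 4 genes per list by p in LiPS-50 minus LiPS-47, and 5 genes most like the member mean by each measure; further list genes, such as Esrp1 and Nanog, were named after their values were seen. Of the genes listed, 7 had no single-gene probe set and are not analysed here. On simulated data for LiPS-50 minus LiPS-47 over 28939 probe sets, the fit found 26% of 1.25-fold changes, 78% of 1.5-fold changes, 96% of 2-fold changes and 100% of 4-fold changes, with 13 false calls among 163. The simulation drew noise independently for each probe set and changed 50 probe sets at each fold. The real comparison called 4568 probe sets, so these rates need not hold for it. Other settings tried were a block for the replicate number, other normalization, pseudocount, filters and trend, only the 2 lines compared, and each culture left out.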

Additional observations from a re-analysis of the deposited data

How the results depend on the processing

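In the comparisons of LiPS-50, 623 of 630 recomputed member differences kept their direction and their side of the threshold, and the other 7 were those of Vim given in the report. Several settings could change only the p and not the difference. Among them were the replicate block, the intensity trend and a culture left out of a line not compared. The number of members called was 10 against LiPS-47 under every alternative run, and 9 or 10 against LiPS-45, against LiPS-57 and in the test of any difference. Between the other lines it was 0 under every alternative run. For competence it was 1 with the contrast of the 4 line means and 0 otherwise. The replicate number was tried as a block: 10, 10 and 10 members were called for LiPS-50 against LiPS-47, LiPS-45 and LiPS-57, and 34 member pairs reached r of 0.7. The numbers showed no clear pairing of the cultures. Same-numbered deviations correlated between -0.169 and 0.121, with 4 of 18 over 0.1, and 5 of 12 cultures correlated best with their own number. The block changed no call of a member. The number of high pairs was 27 to 38 with 1 culture left out and 12 without LiPS-47 replicate 3 and LiPS-45 replicate 2 together, an alternative chosen after seeing the data.

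Small differences between the other lines changed sign with 1 culture left out, and the cause was not tested. For LiPS-47 minus LiPS-45 the range was -0.096 to 0.027 for Vim and -0.142 to 0.00943 for Acta2. For LiPS-47 minus LiPS-57 it was -0.0743 to 0.0487 for Vim, -0.149 to 0.00185 for Acta2 and -0.218 to 0.0246 for Prrx1. For LiPS-45 minus LiPS-57 it was -0.0371 to 0.0624 for Vim, -0.0138 to 0.0906 for Fn1, -0.0692 to 0.0726 for Thbs1, -0.0439 to 0.0147 for Acta2, -0.129 to 0.0824 for Pdgfrb and -0.156 to 0.0493 for Thy1. Over all probe sets, the calls numbered 3106 without LiPS-45 replicate 3 against 4771 for LiPS-50 minus LiPS-45, 2 to 66 against 18 for LiPS-47 minus LiPS-45, 19 to 76 against 46 for LiPS-47 minus LiPS-57, 41 to 132 against 77 for LiPS-45 minus LiPS-57, 2855 without LiPS-50 replicate 1 against 4320 for any difference, and 1789 with the contrast of the line means against 0 for competence.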

Other observations

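A few genes of the stromal lists ran against the members. Nt5e, which encodes the surface enzyme CD73, was 6.22 ± 0.147 in LiPS-50, 7.61 ± 0.0595 in LiPS-47, 7.46 ± 0.074 in LiPS-45 and 7.14 ± 0.18 in LiPS-57 in log2 intensity (SD, n = 3). It was lower in LiPS-50 than in LiPS-47 by a log2 difference of -1.39 (limma adjusted p = 1.94e-06), with differences of -1.24 from LiPS-45 and -0.92 from LiPS-57. Itgb8, a partner of integrin alpha-v, differed by -0.53 from LiPS-47 and Pdgfb, the ligand of both PDGF receptors, by -0.73. Thbs3, a thrombospondin named here after its values were seen, differed by -0.38 (adjusted p = 0.0118). These 4 genes were called lower in LiPS-50 in all 3 comparisons, for which the share of all probe sets was not computed.

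The nascent mesoderm genes Eomes and Mixl1 were lower in LiPS-50 than in each other line. Eomes, a T-box factor of early mesoderm and endoderm, was 6.39 ± 0.197 in LiPS-50, 7.69 ± 0.143 in LiPS-47, 7.94 ± 0.0685 in LiPS-45 and 7.67 ± 0.13 in LiPS-57. Mixl1, a homeobox factor of the primitive streak, was 5.58 ± 0.0989, 6.53 ± 0.0694, 6.68 ± 0.218 and 6.35 ± 0.0412 in the same lines.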
